A study of Caenorhabditis elegans with 12 samples.

Results

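RNA of whole *C. elegans* was compared between FW1256-exposed wild type (WT) and unexposed WT at day 6. The comparison holds 8 of the 12 samples of the series, namely every library labelled as N2 with FW1256 and every library labelled as N2 alone. Both groups are the N2 Bristol laboratory strain, grown on nematode growth medium agar with the *Escherichia coli* strain OP50-1. FW1256-exposed WT received 500 µM of FW1256 from the L1 larval stage onwards, and unexposed WT received none. A treatment note shared by all samples mentions the exposure, but titles and strain labels give it to these 4 libraries only. The paper reports that FW1256 delayed the development of WT and its peak of egg laying. Both groups therefore had the same age in days but may have differed in stage. The part of stage in the differences described here was not tested. Each sample was RNA pooled from about 1000 nematodes, so that no value belongs to a single animal or tissue. The labels do not say whether the 4 replicates of a group came from separate cultures, and p-values measure the spread between these libraries only. All 5272 genes of the per-library tables were considered, of which 3616 had enough counts to be tested. These tables hold 3363 protein-coding genes and 1902 pseudogenes, only a part of the genes of the genome. The paper reports more genes affected by FW1256 than the tables hold. Shares and counts of gene families below therefore cover the genes of the tables only.

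FW1256 is a synthetic donor that releases hydrogen sulfide (H2S) slowly. Animals also make H2S themselves from sulfur amino acids, through cystathionine beta-synthase, cystathionine gamma-lyase and mercaptopyruvate sulfurtransferase, and mitochondria oxidize it. H2S binds heme iron and inhibits cytochrome c oxidase at high levels, modifies cysteines of proteins, and is known in *C. elegans* for its effects on stress resistance, the hypoxia pathway and lifespan. The comparison asks which RNAs differed in nematodes kept with the donor from the L1 stage.

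The libraries held 14769332 to 19199982 estimated counts over these genes in FW1256-exposed WT and 15319366 to 19020724 in unexposed WT. Expression is given as CPM (counts scaled to a common library total) after TMM normalization, relative to the genes of the tables only, and values of single libraries run from replicate 1 to replicate 4. The first principal component held 55.2% of the variance and separated the groups without overlap, and the second held 13.5%. Genes at 0 numbered 1015 to 1078 per FW1256-exposed library, against 687 to 876 per unexposed library, although the ranges of the totals overlapped. The summed CPM of 5 germline markers was 5809 to 6091 with FW1256 and 5011 to 5255 without, and that of 5 oocyte and embryo markers was 12085 to 12522 with FW1256 and 10716 to 12116 without. Only 1 marker of each list passed the test described below. These were *gld-1*, with a mean of 3566 CPM with FW1256 and 2848 CPM without, and *rme-2*, with 3170 and 2571 CPM. The difference between the germline sums therefore rests largely on *gld-1*, and that between the oocyte and embryo sums in part on *rme-2*. Neuronal markers were sparse in these tables, with *egl-3* at 0 in all 8 libraries. In RNA from whole animals, a smaller share of a tissue and less RNA per cell cannot be told apart. Whether counting used strand is not given, so genes with overlapping exons are uncertain, and the partner is given beside most of them. The same holds for *cysl-2*, *cul-2*, *acl-7*, *vit-2*, *hlh-1*, *mig-6*, *tni-4*, *col-97*, *bli-1*, *lys-8*, *zip-1*, *ctl-2*, *gpd-2*, *pars-2*, *dars-1*, *iars-1*, *eef-1A.1* and *nos-3*.

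A large share of genes differed, and the falls were larger than the rises. Of the 3616 genes tested, 1817 (50.2%) were differentially expressed genes (DEGs), called at an adjusted p under 0.05 in edgeR's quasi-likelihood test. Of all genes tested, 922 (25.5%) were higher with FW1256 and 895 (24.8%) were lower. This even split depended on the scaling, as it became 691 higher and 1055 lower with library size in place of TMM, a setting that moved the median log2 fold change of all genes to -0.06 (with TMM, -0.003). The median log2 fold change was 0.33 among DEGs that rose and -0.70 among DEGs that fell. At least 2-fold differences were called upwards for 103 genes (2.85% of those tested) and downwards for 304 (8.41%). Among 1625 DEGs every FW1256-exposed library lay on one side of every unexposed library, and the same was true of 47.9% of all genes tested.

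Direction went with gene level. Among genes with a mean of 3000 or more counts, 494 were called higher and 211 lower. Among those with a mean between 300 and 1000 counts, 102 were higher and 196 lower, and below 30 counts 17 were higher and 84 lower. The number of genes at 0 was also higher in each FW1256-exposed library, and its part in the falls of weakly expressed genes was not tested. Protein-coding genes numbered 825 higher and 709 lower of 3028 tested. Pseudogenes numbered 96 higher and 185 lower of 584 tested, with a median log2 fold change of -0.24. Restricted to a mean of at least 100 counts, 67 pseudogenes were higher and 78 lower of 245, a median of -0.04. On the X chromosome, 75 genes of this level were higher and 123 lower of 334, whereas on chromosome I 165 were higher and 103 lower of 515. The medians on chromosomes I to V lay between 0.02 and 0.05, and that on X was -0.11.

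**Figure D1:**
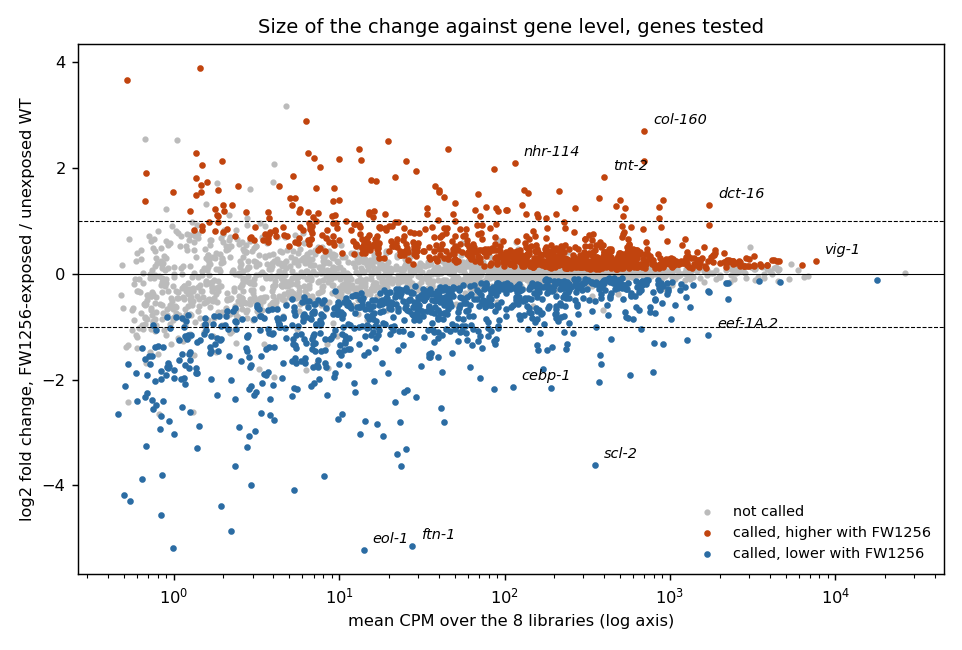
Log2 fold change of FW1256-exposed over unexposed WT (vertical axis) against the mean CPM over the 8 libraries (horizontal log axis) for the 3616 genes tested. Orange points are the 922 genes called higher, blue points the 895 called lower and grey points the rest, and dashed lines mark a 2-fold change. The lowest points are *eol-1* and *ftn-1*, and large falls outnumber large rises.

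Iron and heme genes held some of the largest changes, in opposite directions. *ftn-1*, which encodes a ferritin that stores iron, had 1.35, 2.29, 1.54 and 0.955 CPM in FW1256-exposed WT, against 57.7, 64.9, 59.7 and 33.3 CPM in unexposed WT. Every exposed library lay far below every unexposed library, a log2 fold change of -5.14 (SE 0.29, edgeR adjusted p = 2.33e-06). The gene lies on chromosome V from 7546468 to 7547579 in the WBcel235 build. The other ferritin gene, *ftn-2*, averaged 496 ± 21.2 CPM with FW1256 and 662 ± 47.3 without (SD, n = 4 each), a log2 fold change of -0.42. *aco-1*, a cytosolic aconitase related to iron regulatory proteins, and *fpn-1.1*, a ferroportin that exports iron, both fell by 0.45 on the log2 scale. In contrast, the heme importer *hrg-4* (chromosome IV, 11030143 to 11030993) had 23.2, 25.4, 21.9 and 17.7 CPM in FW1256-exposed WT and 4.28, 6.21, 6.12 and 3.25 CPM in unexposed WT. The groups did not overlap, and the log2 fold change of *hrg-4* was 2.15 (SE 0.22, edgeR adjusted p = 5.34e-05). *hrg-7*, which encodes a secreted protein of heme signalling, had 6.79, 16.1, 13.7 and 8.08 CPM with FW1256, against 0, 0, 4.27 and 1.85 CPM without. Its rise passed the test in the full comparison (edgeR adjusted p = 0.0384) but not with DESeq2 (adjusted p = 0.136) or when any 1 of 7 libraries was left out (edgeR adjusted p up to 0.0845), and its exons overlap those of C15C8.7. Of 7 tested members of the iron and heme list, 2 rose, 4 fell and *hrg-1* did not pass. The median of the list was -0.42, compared with -0.003 over all genes tested.

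The listed genes of H2S synthesis and oxidation changed less. They do not stand for all of H2S metabolism. The paper found *sqrd-1*, an H2S oxidation gene, raised in WT with FW1256 by real-time PCR, and no value of *sqrd-1* is given here. Of 6 tested members, 4 rose and none fell, all by less than 2-fold, and the median log2 fold change was 0.49. *cth-2*, a cystathionine gamma-lyase, had 463, 450.2, 474 and 429 CPM in FW1256-exposed WT and 309, 338, 310.2 and 238 CPM in unexposed WT. The groups did not overlap (log2 fold change 0.60, SE 0.09, edgeR adjusted p = 0.000602), although *cth-2* overlaps ZK1127.3. *cdo-1*, the cysteine dioxygenase that removes cysteine by oxidation, averaged 104 ± 9.49 CPM with FW1256 and 70.7 ± 5.88 CPM without (SD, n = 4 each). Its log2 fold change was 0.56 (SE 0.08), and its exons overlap those of F56F10.2. *mpst-3*, a mercaptopyruvate sulfurtransferase, rose by 0.51 (SE 0.12). *cysl-2*, a cysteine synthase-like enzyme known as a target of the hypoxia factor HIF-1, rose by 0.43 (SE 0.09). It is also one of the 2 members that rose among 4 hypoxia response genes, the other being the cullin *cul-2* (0.27).

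The methionine cycle makes S-adenosylmethionine and feeds sulfur into cysteine synthesis. Its synthetase *sams-1* (chromosome X, 11965962 to 11969893) had 286, 346, 323 and 314 CPM in FW1256-exposed WT, against 107, 106, 114 and 101 CPM in unexposed WT. The lowest exposed library was over 2-fold above the highest unexposed library, and the log2 fold change was 1.57 (SE 0.06, edgeR adjusted p = 4.68e-07). *sams-5*, another synthetase gene, went the other way, with 22.4 ± 2.27 CPM in FW1256-exposed WT and 46.6 ± 5.66 CPM in unexposed WT (SD, n = 4 each), a log2 fold change of -1.06. Reads of the *sams* genes may have been shared in part between these paralogs. Of the 7 tested genes of the cycle, 4 rose and 1 fell, and the rises other than *sams-1* were small, namely *sams-4* (0.18), *mtrr-1* (0.17) and *ahcy-1* (0.14). With library size in place of TMM, 2 rose and 1 fell.

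In the list of fat oxidation and lipases more genes rose than fell, although its members act in several pathways. Of 18 tested genes of fat oxidation and lipases, 10 rose and 4 fell, and the median log2 fold change was 0.25. *cpt-5*, a carnitine palmitoyltransferase homologue, had 23.3, 26.3, 24.8 and 22.3 CPM with FW1256, against 5.60, 9.24, 9.44 and 3.95 CPM without. All exposed libraries were above all unexposed libraries (log2 fold change 1.77, SE 0.25, edgeR adjusted p = 0.000369). *acdh-1*, the acyl-CoA dehydrogenase that opens the propionate shunt and is widely used as a reporter of vitamin B12 status, had 55.4, 76.3, 56.7 and 65.6 CPM in FW1256-exposed WT and 14.8, 30.5, 25.5 and 21.8 CPM in unexposed WT. The groups did not overlap, a log2 fold change of 1.46 (SE 0.20, edgeR adjusted p = 0.00034). The related *acdh-2* rose by 1.25 (SE 0.14), and its exons overlap those of *ins-13*. *nhr-114*, a nuclear hormone receptor known to act in the response to low vitamin B12 and in methionine metabolism, had 192, 182, 202 and 168 CPM with FW1256 and 33.6, 56.1, 45.9 and 39.6 CPM without. Its log2 fold change was 2.08 (SE 0.14, edgeR adjusted p = 7.27e-06), the largest rise among the nuclear hormone receptors called. Among the falls, *lipl-5*, a lysosomal lipase, averaged 568 ± 42.1 CPM in FW1256-exposed WT and 941 ± 145 CPM in unexposed WT (SD, n = 4 each), a log2 fold change of -0.73. *acox-3*, a peroxisomal acyl-CoA oxidase homologue, fell by 0.56 on the log2 scale.

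Of 25 tested genes of lipid synthesis and desaturation, 4 rose and 8 fell, and the median log2 fold change was only -0.03. Over all genes tested, 25.5% were called higher and 24.8% lower, so the list as a whole lay near that background. *fat-3*, which desaturates linoleic acid, had 28.6, 37.9, 39.7 and 41.1 CPM in FW1256-exposed WT, against 84.3, 78.1, 66.1 and 64.8 CPM in unexposed WT. The groups were separate (log2 fold change -0.99, SE 0.13, edgeR adjusted p = 0.000249). *fat-6*, which makes oleic acid, averaged 597 ± 43.0 CPM with FW1256 and 927 ± 145 CPM without, and *fat-2*, which turns oleic into linoleic acid, averaged 1041 ± 61.6 and 1614 ± 302 CPM (SD, n = 4 each). Their log2 fold changes were -0.64 (SE 0.11) and -0.63 (SE 0.12). The rises in this list were at most 0.30 (*acl-7*), and with library size in place of TMM only 1 of the 4 was called. The yolk protein gene *vit-2*, a marker of the intestine with 26417 ± 1540 CPM in FW1256-exposed WT and 26327 ± 1486 CPM in unexposed WT (SD, n = 4 each), did not pass the test (log2 fold change 0.00, SE 0.06).

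Muscle was the list with the highest median among lists of 10 or more tested members. Of 28 tested muscle genes, 21 rose, 1 fell and 6 did not pass, and the median log2 fold change was 0.66. Without unexposed replicate 3, 2 fell. Contraction in body wall muscle runs on myosin thick filaments and on actin thin filaments, which carry tropomyosin and the troponin complex. *tnt-2*, a troponin T gene (chromosome X, 8721546 to 8723550), had 657, 645, 631 and 576 CPM with FW1256 and 163, 193, 173 and 176 CPM without. The log2 fold change of *tnt-2* was 1.83 (SE 0.06, edgeR adjusted p = 3.67e-07), and the lowest exposed library was nearly 3-fold above the highest unexposed library. Tropomyosin, *lev-11*, had 668, 724, 634 and 639.5 CPM in FW1256-exposed WT, against 265, 325, 274 and 241 CPM in unexposed WT (log2 fold change 1.27, SE 0.08). *pat-10*, the body wall troponin C, averaged 1211 ± 28.9 CPM with FW1256 and 507 ± 49.9 CPM without (log2 fold change 1.26, SE 0.06). All 5 troponin genes in the tables rose. The thick filament genes *unc-54* (myosin heavy chain) and *unc-15* (paramyosin) rose by 1.06 (SE 0.06) and 1.10 (SE 0.04), values looked up after the list was counted. All 5 actin genes rose, by 0.28 to 0.69, although near-identical sequences mean that their reads could be split between copies. *unc-78*, an actin-interacting protein that promotes filament turnover, fell, with 71.4 ± 3.08 CPM in FW1256-exposed WT and 111 ± 11.1 CPM in unexposed WT (SD, n = 4 each), a log2 fold change of -0.63.

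The marker list for body wall muscle shares 6 of its 7 members with the muscle list and is therefore not separate support. Its summed CPM was 5662 to 6290 in FW1256-exposed WT and 3246 to 3585 in unexposed WT, and 6 of 7 members rose, while the regulator *hlh-1* did not pass (log2 fold change 0.51). The basement membrane genes *unc-52* (perlecan) and *let-2* (a type IV collagen) also rose, by 1.08 (SE 0.24) and 0.65 (SE 0.08). *unc-52* overlaps *hhat-1* in its exons. The third tested member of that list, *mig-6*, did not pass (0.23). Pharyngeal *myo-1* and *tni-4* rose, but *abu-8* and *abu-12* did not pass and had negative log2 fold changes (-1.32 and -1.48). The part of the share of muscle tissue in the animals was not tested.

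Lysosomal acidification genes rose together while autophagy genes did not. The V-ATPase is the proton pump that acidifies lysosomes and other compartments, and its subunits are encoded by *vha* genes. Of 12 *vha* genes tested, 11 rose and 1 did not pass, with log2 fold changes of 0.10 to 1.20. The subunit gene *vha-5* had 142, 155, 145 and 132 CPM in FW1256-exposed WT and 51.9, 71.3, 66.7 and 60.5 CPM in unexposed WT. The groups did not overlap (log2 fold change 1.20, SE 0.10, edgeR adjusted p = 1.68e-05), although *vha-5* overlaps F35H10.10. The cathepsin A-like carboxypeptidase genes *ctsa-4.1* and *ctsa-4.2* rose by 1.58 (SE 0.11) and 1.18 (SE 0.12), and they overlap *clec-88* and *srh-40*. Among the falls in the list, *hex-1*, a lysosomal hexosaminidase, had 105, 111, 107 and 92.1 CPM with FW1256, against 221, 280.3, 167 and 229 CPM without. Its log2 fold change was -1.11 (SE 0.14, edgeR adjusted p = 0.000178). In all, 19 of 31 tested genes of the V-ATPase and lysosomal hydrolases rose and 3 fell, a median of 0.33.

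None of 12 tested autophagy genes rose and 5 fell, a median log2 fold change of -0.12. *sqst-1*, the p62-like receptor that carries ubiquitinated cargo into autophagosomes (chromosome IV, 12034282 to 12036891), had 190.4, 190.1, 202 and 189.5 CPM in FW1256-exposed WT, against 674, 472, 510.1 and 589 CPM in unexposed WT. The exposed libraries lay close together and below every unexposed library, a log2 fold change of -1.54 (SE 0.10, edgeR adjusted p = 5.69e-06). *atg-2*, a lipid transfer protein of the growing autophagosome, fell by 0.39 on the log2 scale (SE 0.06). *aak-2*, a catalytic subunit of AMP-activated kinase whose exons overlap those of *mec-4*, fell by 0.35 (SE 0.09).

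**Figure D2:**
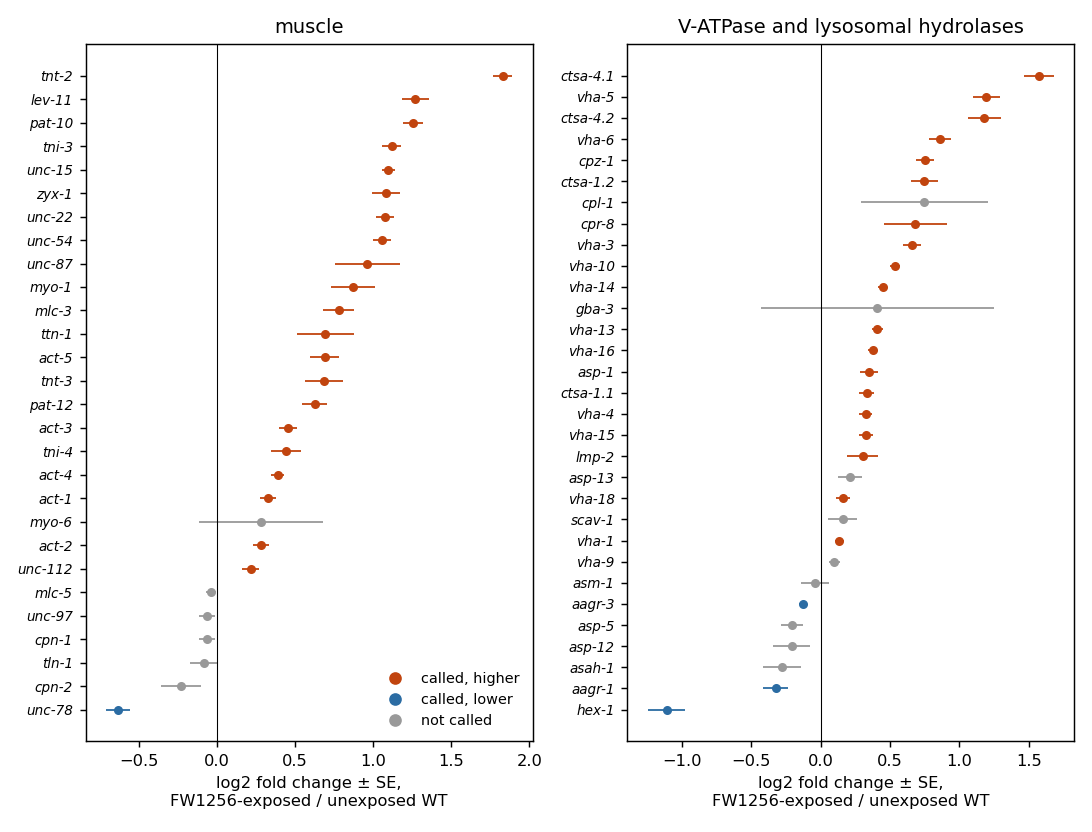
Log2 fold change with SE (horizontal axes) of every tested muscle gene (left, 28 genes) and every tested gene of the V-ATPase and lysosomal hydrolases (right, 31 genes), FW1256-exposed over unexposed WT. Orange marks genes called higher, blue genes called lower and grey genes not called. In the muscle list 21 genes are orange and 1, *unc-78*, is blue, and in the lysosomal list 19 are orange and 3 are blue.

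Genes of the nematode surface split. Cuticle collagens are secreted by the hypodermis and cross-linked into the exoskeleton, mostly around each moult. *col-160* (chromosome V, 13200982 to 13202189) had 1316, 1258, 1201 and 1066 CPM in FW1256-exposed WT and 105, 239.9, 183 and 226 CPM in unexposed WT. The log2 fold change was 2.69 (SE 0.22, edgeR adjusted p = 1.96e-05), with the reservation that exons of *col-160* and *col-159* overlap. *col-124* (chromosome IV, 10216451 to 10217617) had 1129.8, 1131, 1162 and 1131 CPM with FW1256, against 156, 393, 272 and 219 CPM without (log2 fold change 2.13, SE 0.23, edgeR adjusted p = 8.6e-05), and it overlaps *qns-1*. *col-184* averaged 2258 ± 152 CPM in FW1256-exposed WT and 1196 ± 156 CPM in unexposed WT (SD, n = 4 each), a log2 fold change of 0.92. These 3 were among the 5 DEGs with the largest gain in CPM. Conversely, *col-12* had 10.998, 16.6, 9.62 and 11.1 CPM with FW1256, against 61.9, 153, 49.9 and 15.6 CPM without, so that the lowest unexposed library fell within the exposed range. *col-88* and *col-97*, which fell by 2.84 (SE 0.75) and 2.20 (SE 0.62) on the log2 scale, shared this overlap, again through unexposed replicate 4. Of 13 tested collagens, 3 rose and 3 fell, a median log2 fold change of -0.77. Without unexposed replicate 4, the number that fell was 5.

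Among 23 tested genes of cuticle assembly and molting none rose and 12 fell, a median log2 fold change of -0.46. *bus-8B*, a glycosyltransferase gene needed for the integrity of the surface, had 3.23, 4.45, 3.76 and 2.74 CPM in FW1256-exposed WT, against 62.0, 29.1, 45.8 and 37.8 CPM in unexposed WT. The log2 fold change was -3.63 (SE 0.26, edgeR adjusted p = 7.99e-06), but its exons overlap those of T23F2.2 and *bus-8A*. *cutl-8*, a cuticlin-like gene, had 2.80, 3.55, 4.19 and 5.09 CPM with FW1256 and 54.4, 31.7, 37.5 and 40.9 CPM without. The log2 fold change of *cutl-8*, which overlaps T01G9.2, was -3.40 (SE 0.22, edgeR adjusted p = 5.69e-06). The hypodermal marker *far-2* rose by 0.25 while *col-12* fell, and *bli-1* and *rol-6* did not pass.

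In the lists of innate immunity more genes were called lower than higher. Over all genes tested, 24.8% were called lower and 25.5% higher. At a mean of 300 to 1000 counts these shares were 39.2% and 20.4%. The immune lists were not compared with other genes of their level. In the p38 MAP kinase pathway, the adaptor TIR-1 (the SARM1 homologue) acts upstream of a kinase cascade and of the factor ATF-7, and the phosphatase VHP-1 restrains MAP kinases. *tir-1* (chromosome III, 3869590 to 3901642) had 115, 133, 138 and 193 CPM in FW1256-exposed WT, against 803, 487, 465 and 652 CPM in unexposed WT. Its log2 fold change was -2.05 (SE 0.21, edgeR adjusted p = 5.15e-05), and the groups did not overlap. *vhp-1* had 93.3, 103, 88.1 and 102 CPM with FW1256, against 314, 215, 258 and 267 CPM without (log2 fold change -1.45, SE 0.11, edgeR adjusted p = 1.01e-05). The kinase gene *pmk-3* averaged 41.7 ± 3.38 CPM in FW1256-exposed WT and 86.5 ± 12.0 CPM in unexposed WT (SD, n = 4 each), a log2 fold change of -1.05. In the list of 8 tested genes 5 fell and 2 rose. The falls include *vhp-1*, whose product restrains the kinases, and *pmk-3*, known also from axon regeneration. The count therefore does not measure the activity of the immune pathway. The 2 that rose are infection response genes, *irg-8* (0.60, SE 0.13) and *irg-4* (0.66, SE 0.23), and *irg-4* overlapped between the groups and lost its call when any 1 of 6 libraries was left out.

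The bZIP factor gene *cebp-1*, a C/EBP homologue known from axon regeneration downstream of PMK-3 (chromosome X, 1452695 to 1453868), had 40.4, 47.3, 35.9 and 41.6 CPM with FW1256 and 227, 155, 157 and 191 CPM without. The log2 fold change was -2.14 (SE 0.14, edgeR adjusted p = 5.55e-06). *zip-2*, another bZIP factor, which acts in defence when translation is impaired, had 429.5, 479, 428 and 513 CPM in FW1256-exposed WT, against 1321, 1035, 974 and 1232 CPM in unexposed WT. It fell by 1.30 on the log2 scale (SE 0.10), and its exons overlap those of *dos-3*. Of 13 tested lysozymes and antimicrobial peptides 7 fell and 2 rose, a median of -0.38. *cnc-2*, an epidermal antimicrobial peptide, had 40.3, 36.3, 30.4 and 18.7 CPM with FW1256, against 131, 204, 157 and 74.5 CPM without (log2 fold change -2.17, SE 0.32, edgeR adjusted p = 0.000442). The thaumatin-like *thn-2* and the lysozyme *lys-8* fell by 1.33 (SE 0.20) and 0.63 (SE 0.08). The peptide gene *nlp-24* and the saposin-like *spp-4* rose by 1.29 (SE 0.12) and 1.19 (SE 0.17), with *nlp-24* overlapping *glb-15*. Among 13 C-type lectins, 5 fell and 2 rose, or 1 rose without unexposed replicate 1 or without FW1256-exposed replicate 3. The lectin genes *clec-65* and *clec-41* averaged 237 ± 24.3 and 402 ± 40.5 CPM in FW1256-exposed WT, against 476 ± 47.9 and 717 ± 115 CPM in unexposed WT (SD, n = 4 each).

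*eol-1*, which encodes a protein of the DXO family of RNA decapping enzymes and belongs to the intracellular pathogen response, had the most negative log2 fold change of all DEGs. It lies on chromosome V from 13979462 to 13980907 and had 0.539, 1.11, 0.986 and 0.318 CPM in FW1256-exposed WT, against 40.4, 19.3, 25.5 and 24.6 CPM in unexposed WT (log2 fold change -5.22, SE 0.36, edgeR adjusted p = 7.75e-06). The other 3 tested genes of that response, *cul-6*, *zip-1* and *pals-23*, had log2 fold changes of -0.12, -0.19 and -0.26 and did not pass. *somi-1* had 0, 5.42, 8.32 and 3.63 CPM with FW1256, against 25.9, 20.4, 14.9 and 20.5 CPM without. Its call (edgeR adjusted p = 0.0298) was lost with DESeq2 (adjusted p = 0.0926) and when any 1 of 4 libraries was left out (edgeR adjusted p up to 0.0735). *scl-2*, a gene of the SCP-like secreted proteins (chromosome IV, 13057710 to 13059062), had 43.7, 46.9, 57.6 and 62.6 CPM with FW1256, against 853, 692, 517 and 534 CPM without. It fell by 3.62 on the log2 scale (SE 0.19, edgeR adjusted p = 2.01e-06). The related *scl-6*, singled out after its value was seen, had the highest log2 fold change of all DEGs (3.88, SE 0.68), at a level of 3.23, 4.38, 1.17 and 2.10 CPM in FW1256-exposed WT and 0.305, 0.319, 0.0562 and 0 CPM in unexposed WT.

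**Figure D3:**
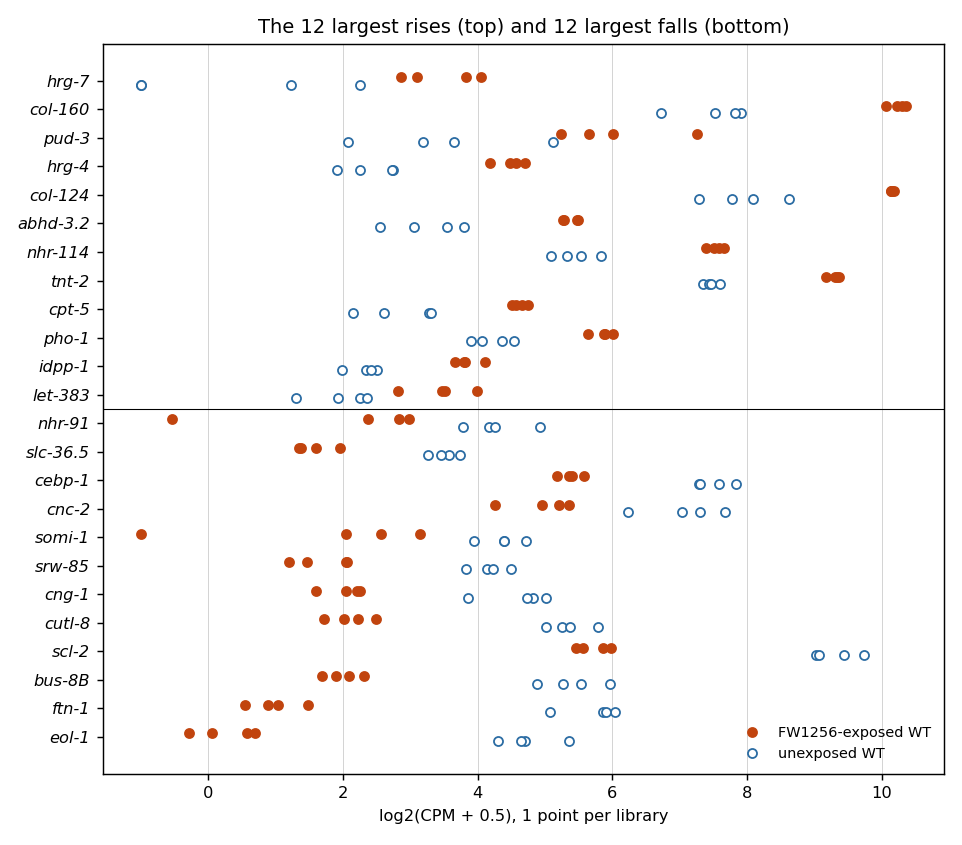
Expression as log2(CPM + 0.5), 1 point per library, of the 12 largest rises (above the line) and the 12 largest falls (below it) among DEGs averaging 100 counts or more whose groups were separate. Filled orange points are FW1256-exposed WT and open blue points are unexposed WT (4 libraries each). The spread within groups is small for *tnt-2* and *nhr-114* and wide for *hrg-7*, *somi-1* and *nhr-91*, where 1 or more libraries are at or near 0.

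Antioxidant and stress reporter genes went in both directions. Catalases break down hydrogen peroxide. *ctl-1* had 176, 164, 173 and 165 CPM in FW1256-exposed WT, against 359, 336, 286 and 313 CPM in unexposed WT. Its log2 fold change was -0.93 (SE 0.07, edgeR adjusted p = 7.99e-06), and that of the neighbouring *ctl-2* was -0.89 (SE 0.08). The catalase genes are similar in sequence, so that reads could be shared between them. The peroxiredoxin *prdx-2* fell by 1.69 (SE 0.26) at a low level, 2.93 ± 0.759 CPM with FW1256 and 9.46 ± 2.33 CPM without (SD, n = 4 each). *msra-1*, the methionine sulfoxide reductase that repairs oxidized methionine, had 248, 193, 193 and 191 CPM with FW1256, against 66.2, 77.3, 69.3 and 75.1 CPM without. The groups were well apart (log2 fold change 1.52, SE 0.09, edgeR adjusted p = 4.61e-06), and *msra-1* overlaps *insc-1*. The superoxide dismutase *sod-1* and the glutathione peroxidase *gpx-2* rose by 0.41 (SE 0.04) and 0.33 (SE 0.06). Of 11 tested antioxidant genes, 3 rose and 4 fell.

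A short list of genes that the insulin-regulated factor DAF-16 is known to induce did not rise as a group. The list shares its catalases with the antioxidant genes. It leaves out *dct-16*, named for its control by DAF-16, which rose by 1.29 on the log2 scale. Of 6 tested reporters 1 rose (*gpd-2*, 0.20) and 3 fell, the catalases and *icl-1*. The last, an enzyme of the glyoxylate cycle, averaged 719 ± 68.9 CPM in FW1256-exposed WT and 1302 ± 166 CPM in unexposed WT (SD, n = 4 each), a log2 fold change of -0.86. Of 6 tested insulin pathway genes only the insulin-like *ins-17* was called (-0.52). The receptor *daf-2* and *daf-16* itself, which did not pass, had log2 fold changes of 0.09 (SE 0.09) and 0.35 (SE 0.15). *pud-3*, named for its protein's abundance in *daf-2* mutants, had 49.97, 153, 37.4 and 63.7 CPM with FW1256 and 8.65, 34.3, 12.1 and 3.70 CPM without (log2 fold change 2.36, SE 0.65, edgeR adjusted p = 0.0128). Among detoxification enzymes, 3 of 10 UDP-glucuronosyltransferases rose and 5 fell, or 3 fell without FW1256-exposed replicate 1. *ugt-22*, which overlaps *srz-29*, rose by 1.57 (SE 0.16), while *ugt-24* and *ugt-29* fell by 2.02 (SE 0.14) and 1.34 (SE 0.12). The glutathione transferase *gst-26* rose by 1.55 (SE 0.16), and the other 3 tested glutathione transferases did not pass. Of 5 cytochrome P450 genes 1 rose and 3 fell.

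**Figure D4:**
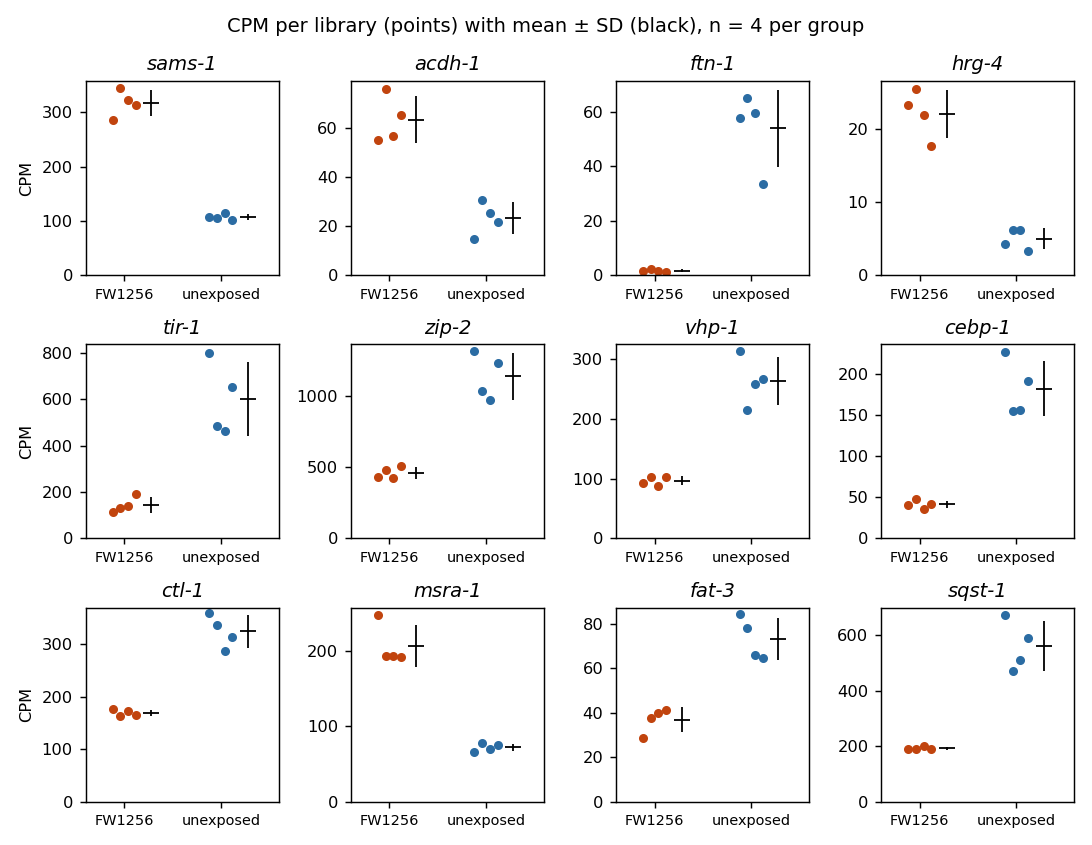
CPM of 12 genes in each library, with FW1256-exposed WT (orange) left of unexposed WT (blue) and the mean ± SD of 4 libraries in black beside the points. All axes start at 0. The groups do not overlap in any panel, with *sams-1*, *acdh-1*, *hrg-4* and *msra-1* higher and the other 8 genes lower with FW1256.

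Lists of protein synthesis and quality control differed in direction, with ribosomal, proteasome and chaperone genes called mostly upwards and translation factors and aminoacyl-tRNA synthetases called both ways. Among all genes with a mean of 3000 or more counts, 38.7% were called higher and 16.5% lower. The lists of this paragraph were not compared with other genes of their level. Of 46 tested cytosolic ribosomal protein genes 22 rose and none fell, a median log2 fold change of 0.16, and 15 rose with library size in place of TMM. Without unexposed replicate 4, or without FW1256-exposed replicate 2, 1 fell. The largest rise was *rpl-31*, with 357, 433, 341 and 368 CPM in FW1256-exposed WT and 137, 199, 156 and 147 CPM in unexposed WT (log2 fold change 1.23, SE 0.12, edgeR adjusted p = 4.05e-05). It was the only ribosomal gene called at 2-fold or more. Of 12 proteasome genes 7 rose and none fell, a number that dropped to 3 with library size and to 4 without FW1256-exposed replicate 2. Of 27 chaperones 14 rose and 3 fell, led by the small heat shock protein *hsp-12.2* (0.71, SE 0.13, overlapping C14B9.8) and the mitochondrial chaperonin *hsp-60* (0.49, SE 0.10). The respiratory chain held 9 rises and 1 fall among 22 genes, with 5 rises and 3 falls under library size, and no fall without unexposed replicate 1 or without FW1256-exposed replicate 1 or 4. The ATP synthase gene *asb-2* and the complex II subunit *mev-1* rose by 0.32 (SE 0.04) and 0.35 (SE 0.04). Of 15 genes of glycolysis, glycogen and trehalose 9 rose and 2 fell.

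Aminoacyl-tRNA synthetases did not follow the ribosomal genes. Among 17 tested, 4 rose and 6 fell, and the falls were those of *sars-1*, *hars-1*, *dars-1*, *aars-2*, *lars-1* and *iars-1*. *sars-1*, which charges serine tRNA, had 497, 503, 501 and 495 CPM with FW1256, against 935, 715, 803 and 761 CPM without. The groups were separate, with a log2 fold change of -0.69 (SE 0.07, edgeR adjusted p = 6.98e-05), and the gene overlaps C47E12.13. The rises were led by *pars-2*, with a log2 fold change of 0.35 (SE 0.06). Next came *fars-1* (0.28, SE 0.04), which overlaps T08B2.15, and *yars-2* (0.28, SE 0.05). Of 17 tested translation factors 5 rose and 4 fell, a median log2 fold change of 0.01, and with library size in place of TMM 4 rose and 6 fell. The largest rise among them was *ifg-1*, an initiation factor 4G homologue (0.40, SE 0.07), which overlaps *dab-1*. The elongation factor genes *eef-1A.1* and *eef-1A.2* encode near-identical proteins and were the 2 DEGs with the largest loss of CPM. *eef-1A.2* had 1012, 1079, 1102 and 1019 CPM in FW1256-exposed WT, against 2972, 1863, 2250.0 and 2359 CPM in unexposed WT (log2 fold change -1.17, SE 0.12, edgeR adjusted p = 5.59e-05). *eef-1A.1* averaged 17142 ± 677 CPM with FW1256 and 18539 ± 611 CPM without (SD, n = 4 each). The groups overlapped, and its call (edgeR adjusted p = 0.0486) was lost when any 1 of 7 libraries was left out.

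Other genes with the largest shifts in CPM were of several kinds. *dct-16*, which is named for its control by DAF-16, had 2699.8, 2580.5, 2454 and 2111 CPM in FW1256-exposed WT, against 818, 1317, 1126 and 751 CPM in unexposed WT (log2 fold change 1.29, SE 0.17). *vig-1*, a component of RNA silencing complexes, averaged 8292 ± 186 CPM with FW1256 and 7015 ± 384 CPM without (SD, n = 4 each), a log2 fold change of only 0.24. Losses included *ule-4*, expressed in the uterine lumen, with 576, 569, 530.0 and 407 CPM in FW1256-exposed WT and 1264, 1589, 1219 and 1125 CPM in unexposed WT (log2 fold change -1.32, SE 0.13). *srlf-7* and C17H12.8 fell by 1.26 (SE 0.09) and 1.85 (SE 0.15).

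Of 25 tested genes of the oocyte, eggshell and early embryo 11 rose and none fell, a median log2 fold change of 0.11, and no member reached 2-fold. Among all genes with a mean of 3000 or more counts, 38.7% were called higher, and this list was not compared with other genes of its level. The largest rises were *par-1* (0.41, SE 0.08), which overlaps H39E23.2, the RNA helicase gene *glh-4* (0.34, SE 0.06) and *nos-3* (0.34, SE 0.06). *rme-2*, the yolk receptor of oocytes, averaged 3170.3 ± 51.7 CPM in FW1256-exposed WT and 2571 ± 188 CPM in unexposed WT (SD, n = 4 each), a log2 fold change of 0.30. Of 10 meiosis genes 2 rose and 1 fell, and of 9 sperm genes 1 rose (*spe-39*, 0.34) and 1 fell. The fall was that of *fer-1*, which acts in sperm membrane fusion, with 4.96, 1.32, 4.19 and 4.07 CPM in FW1256-exposed WT, against 10.6, 9.83, 12.0 and 12.8 CPM in unexposed WT (log2 fold change -1.63, SE 0.33), and its call was lost in 1 fit over all 12 libraries (edgeR adjusted p = 0.095). Of 5 tested genes of the zygotic embryo 2 rose and none fell, a median of 0.40. These were *pes-9* (0.40, SE 0.07) and, at a low level of 2.54 CPM with FW1256 and 1.19 CPM without, *sdz-13* (1.09, SE 0.31). The 3 sperm markers were low, with a summed CPM of 19.9 to 45.7 with FW1256 and 8.86 to 44.9 without, and none passed.

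Several families of regulators and sensory genes held more falls than rises. Among all genes with a mean of 300 to 1000 counts, 39.2% were called lower and 20.4% higher. Below 30 counts these shares were 24.2% and 4.9%, and the families were not compared with other genes of their level. Of 49 tested nuclear hormone receptors, out of 60 in the tables, 18 fell and 6 rose, a median log2 fold change of -0.22. Beside *nhr-114*, the receptors *nhr-31* (0.71, SE 0.13) and *nhr-1* (0.49, SE 0.06) rose. *nhr-117* had 3.88, 4.94, 3.95 and 4.77 CPM in FW1256-exposed WT, against 14.7, 10.5, 10.9 and 11.7 CPM in unexposed WT (log2 fold change -1.45, SE 0.16). *nhr-91* had 4.69, 7.37, 6.60 and 0.191 CPM with FW1256, against 29.8, 13.2, 17.5 and 18.7 CPM without. It lost its call without unexposed replicate 1 (edgeR adjusted p = 0.0657) or without FW1256-exposed replicate 1 (adjusted p = 0.0546), and it overlaps *glb-28*. F-box, MATH and BTB adaptors of ubiquitin ligases fell in 8 and rose in 2 of 18 tested. Only 10 of 48 chemoreceptor genes had enough counts, of which 5 fell and 1 rose. The summed CPM of all 48 was only 21.6 to 27.4 with FW1256 and 39.6 to 45.7 without, and much of that gap lay in *srw-85*. A gene near 0 in 1 group could enter the test through the other group, where it was higher. These counts therefore do not describe the family. *srw-85*, a member of the *srw* receptors, had 2.26, 3.68, 1.79 and 3.63 CPM with FW1256 and 22.1, 13.8, 17.1 and 18.3 CPM without (log2 fold change -2.65, SE 0.26, edgeR adjusted p = 4.57e-05).

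Of 45 tested ion channels and neurotransmitter receptors 9 rose and 12 fell, a share of falls near the 24.8% of all genes tested, with a median of -0.18. *cng-1*, a cyclic nucleotide-gated channel subunit that overlaps F14H8.8, had 2.53, 3.62, 4.25 and 4.14 CPM in FW1256-exposed WT, against 27.8, 14.0, 26.1 and 31.8 CPM in unexposed WT (log2 fold change -2.78, SE 0.27, edgeR adjusted p = 4.73e-05). The glutamate-gated chloride channel *avr-14* fell by 1.95 (SE 0.16), and the muscle potassium channel *twk-18* and the innexin *inx-8* rose by 0.99 (SE 0.08) and 0.49 (SE 0.04). Among water channels, *aqp-2* averaged 261 ± 11.7 CPM in FW1256-exposed WT and 614 ± 100.1 CPM in unexposed WT, whereas *aqp-7* averaged 184 ± 17.2 and 84.5 ± 9.34 CPM (SD, n = 4 each). Of 11 tested transthyretin-like genes, a large secreted family of nematodes, 3 rose and 6 fell. *ttr-26* had 26.0, 30.6, 28.7 and 27.1 CPM with FW1256, against 97.3, 97.4, 99.7 and 86.4 CPM without (log2 fold change -1.76, SE 0.08, edgeR adjusted p = 6.93e-07). *ttr-23* fell by 1.87 (SE 0.11), and *ttr-16*, which overlaps *lin-3*, rose by 0.89 (SE 0.05).

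**Figure D5:**
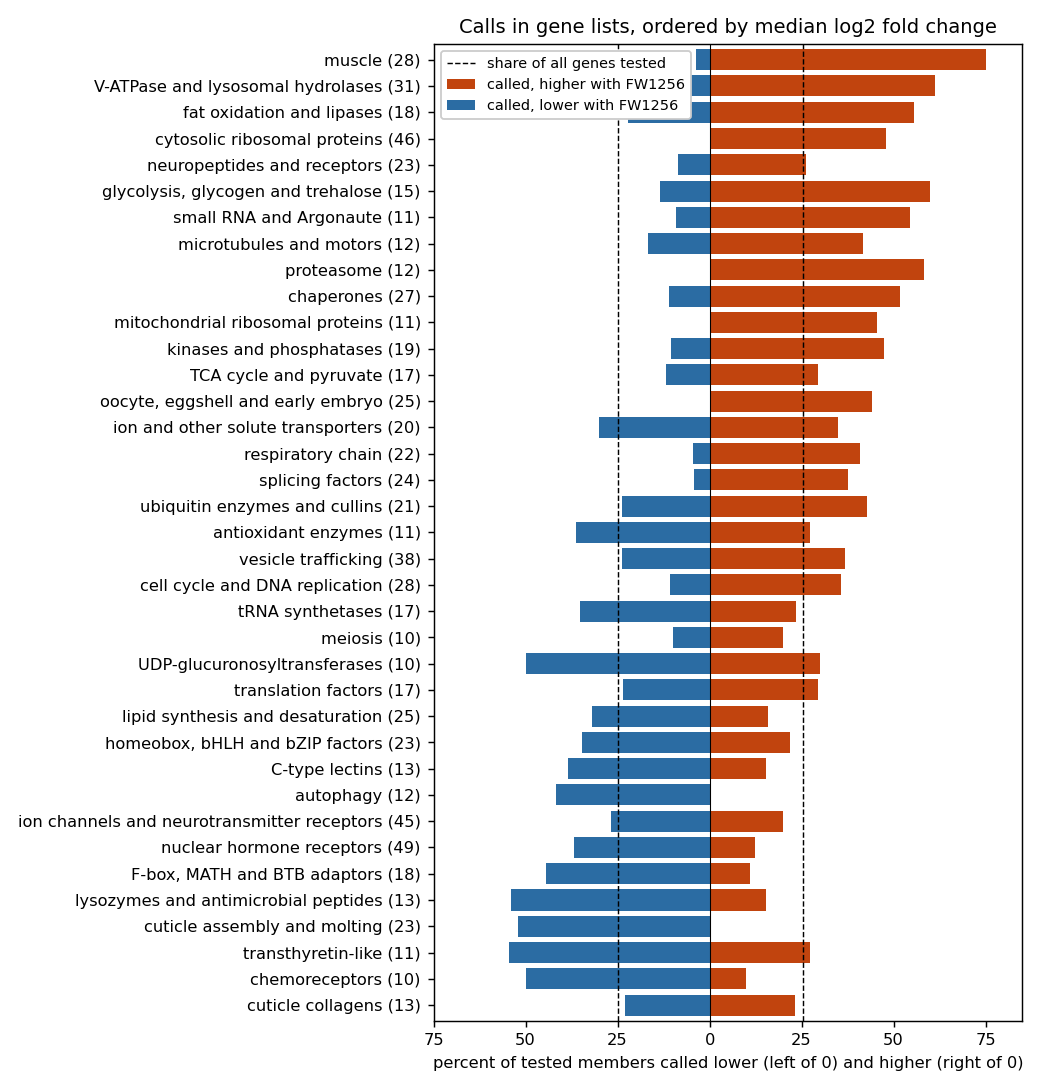
Percent of tested members called higher with FW1256 (orange, right of 0) and lower (blue, left of 0) in each gene list with at least 10 tested members, given in parentheses, ordered from the highest median log2 fold change at the top. Dashed lines mark the shares of all genes tested, 25.5% higher and 24.8% lower. Muscle, V-ATPase and lysosomal hydrolases, and fat oxidation stand at the top, and cuticle assembly, transthyretin-like genes, chemoreceptors and collagens at the bottom.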

How the data were processed

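RNAseq libraries of FW1256-exposed WT and unexposed WT (4 each) were analysed, with *eat-2* mutants entering only 1 alternative. The submitters' processing notes name WBcel235 and kallisto 0.46.0. The estimated counts per gene that the authors deposited were summarized from transcripts with tximport as TPM scaled by transcript length and library total, so they already allow for changes in isoform length and need not be whole. Use of strand in counting is not given in the sources used here, so genes with overlapping exons are uncertain. Tables of the authors' own tests, with fold changes on the log2 scale, their errors, means and p-values (DESeq2 1.24.0 in the submitters' processing notes), were not used. No column of unknown origin was found (0).

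Estimated counts were rounded and tested in edgeR 4.0.16 (R 4.3.3) with filterByExpr, TMM, glmQLFit and glmQLFTest. P-values were adjusted over 3616 genes by the Benjamini-Hochberg method, and DEGs had an adjusted p under 0.05. The SE of a log2 fold change is its absolute value divided by the square root of F. Fits were tested on simulated data, where 42 of 50 genes changed 2-fold and 31 of 50 changed 1.5-fold were found in this comparison, with 6 false calls among 3684 genes. The simulation changed 50 genes at each of 1.5-, 2-, 4- and 8-fold, with equal numbers of rises and falls. Far fewer genes differed there than in the real libraries. The simulation therefore does not test the scaling when a large share of genes differ or falls exceed rises. Positions and overlaps come from Ensembl release 115 (5271 of 5272 genes found). Totals cover these genes only and limit precision for low counts.

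Gene lists (55) and members were chosen with earlier results of these data known. Lists are described by counts and medians, without a test. Named genes were the 12 largest rises and 12 largest falls among DEGs that carried a symbol, averaged 100 counts or more and did not overlap, up to 3 rises and 3 falls per list, and the 5 largest gains and 5 largest losses in CPM, 235 genes in all, of which those that show each list best are given. Alternatives were DESeq2 1.42.0, other scalings and filters, 1 fit over 12 libraries, a replicate block, and each library left out. Promoter motifs were not analysed here.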

Additional observations from a re-analysis of the deposited data

Results flagged for a closer look

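In groups of 4 libraries, 6 of 190 sets of values held 1 library whose distance from the others was large relative to the whole range (Dixon's ratio above its 95% critical value). Chance marks about 1 in 20 such sets.

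*col-124* stood at 1162 CPM in FW1256-exposed replicate 3, while the other exposed libraries lay between 1129.8 and 1131 CPM, so that the distance is small against the level. *vig-1* stood at 6442 CPM in unexposed replicate 1, against 7146 to 7238 CPM in the other unexposed libraries. FW1256-exposed replicate 4 was lowest in the summed CPM of basement membrane genes (830.2, against 966 to 984 in the other exposed libraries) and of lysozymes and antimicrobial peptides (5203, against 5976 to 6114). The summed CPM of sperm markers was 45.7 in FW1256-exposed replicate 2 and 19.9 to 22.7 in the other exposed libraries. That of neuronal markers was 99.7 in unexposed replicate 3 and 107 to 108 in the other unexposed libraries.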

How the results depend on the processing

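The number of DEGs, 1817 as reported, lay between 1578 (a minimum mean of 100 counts, with 2860 genes tested) and 1985 (1 fit over 12 libraries) under the alternatives that kept all 8 libraries. With 1 library left out it ranged from 1583 to 1791, with 805 to 914 higher and 770 to 879 lower. Of the 1817 DEGs, 1795 were also called by DESeq2. At least 2-fold changes ranged from 370 to 447 with 1 library left out. The count of at least 2-fold changes moved most: with a minimum mean of 100 counts it was 239 (68 higher, 171 lower), compared with 407 (103 higher, 304 lower), because fewer genes of low level were tested. Library size in place of TMM gave 39.6% of DEGs higher, compared with 50.7%. Of the genes named by the rule, 211 were called in every fit, 18 lost their call without 1 library, and none changed direction under any alternative. Counts of list members changed by more than 1.5 times in 116 of 1650 list, direction and setting combinations. With the replicate block 1767 genes were called (908 higher, 859 lower). Deviations of libraries with the same number correlated at -0.017, 0.21, 0.048 and 0.055, and not every library correlated best with its own number, so the numbers were not used to pair libraries. Depth limits genes with few counts, and 316 genes were at 0 in all 8 libraries. CPM are relative to the genes of these tables, and results do not extend to other genes.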
